A study of Mus musculus with 12 samples.

Results

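The genes that place, copy and remove cytosine methylation were examined in mouse epiblast-like cells (EpiLCs) with and without KDM5C. The 9 genes were chosen by name, out of 22911 genes in the deposited tables, and are *Dnmt3a*, *Dnmt3b*, *Dnmt3l*, *Dnmt1*, *Uhrf1*, *Tet1*, *Tet2*, *Tet3* and *Tdg*. All 9 had reads in each of the 12 libraries and none was lost to a filter on low values. As background, methylation in mammals sits mostly on the cytosine of CpG dinucleotides. DNMT3A and DNMT3B add it to unmethylated DNA, and DNMT3L, which has no catalytic activity of its own, binds and stimulates both. DNMT1 copies the pattern to the new strand after replication, and UHRF1 brings it to the hemimethylated sites. The TET enzymes oxidise methylated cytosine, and TDG cuts out the most oxidised forms for repair. Naive mouse embryonic stem cells (ESCs) kept under MEK and GSK3 inhibition carry little methylation, and the genome gains it as cells pass into the formative state that EpiLCs model.

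The study asked what the loss of KDM5C, an X-linked demethylase of lysine 4 of histone H3, does in female and male cells, and RNA-Seq was 1 of its assays. ESC lines were converted to EpiLCs by 48 h in FGF2 (10 ng/ml) and Activin A (20 ng/ml). The 4 groups, with 3 libraries each, were female *Kdm5c* fl/fl and male *Kdm5c* flY cells as controls, and female *Kdm5c* Δ/Δ and male *Kdm5c* ΔY cells as knockouts. The submitters' labels call them wild type and knockout of *Smcx*, an older name of *Kdm5c*, and give the strain as C57BL/6J. The controls carried the floxed allele rather than an unmodified gene, and the study's methods describe the floxed strain as made on a mixed background. Cre had removed exons that encode the demethylase domain, so the knockout allele still made transcript. ESCs had also been grown on fibroblast feeder cells before the feeder-free culture.

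The deposited tables give only the authors' mean of each group in normalized counts, that is, reads divided by a size factor of the library. The reads of every library were therefore worked out from those means, which gave exactly 1 solution for each of the 9 genes in each group. Between 5516216 and 11092731 reads were recovered per library, and intervals of counts at such depths cover counting error only. Within a group the libraries are called A, B and C, from the highest size factor to the lowest, and which ESC line each came from is not known here. Male control B and male knockout A stood apart from their groups. A chi-square statistic per gene between them and the other libraries of their groups was 17.4 to 29.5, against 1.97 to 4.55 for all other pairs. By the number of genes with a read it was male controls A and C that differed from the rest, with 20773 and 20368 against 17163 to 17731 in the other 10 libraries. These extra genes enter the 21900 genes tested in males and their median. *Kdm5c* itself, the targeted gene, had 2336, 2429 and 2315 normalized counts in female controls and 1406, 1447 and 1505 in female knockouts. It had 2195, 2110.1 and 2371 in male controls and 1897, 1943 and 1976 in male knockouts, with no overlap of genotypes in either sex, although the male difference was not called (limma adjusted p = 0.274). The counts cover the whole gene, deleted exons included, and read coverage of those exons was not analysed here.

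Of the 9 genes, *Dnmt3l* had the largest fold difference in both sexes and was more than 4-fold higher in knockout than in control EpiLCs. In females, the catalytic partners *Dnmt3a* and *Dnmt3b* and the demethylation genes *Tet1* and *Tet3* were also higher in knockouts, and *Tet2* was lower. In males, only *Dnmt3l* and *Tet3* of the 9 passed the test. Each sex was fitted on its own with limma on log2(normalized count + 1), with p adjusted by the Benjamini-Hochberg method over all genes with a read and called at 0.05. Of the 9 genes, 5 were called higher and 1 lower in female knockouts, where 25.4% of all 19583 genes tested were called higher and 24.6% lower. In male knockouts, 2 were called higher and 0 lower, against 4.19% and 3.58% of 21900 genes. These shares include genes with few reads. With the test restricted to genes averaging 10 or more normalized counts, 9163 of 13915 genes were called in females, 50.6% of them higher. In that fit 7 of the 9 were called. In males it was 1753 of 14304 genes, 56.9% of them higher, and 2 of the 9. In males, 0 of the 9 were lower at an unadjusted p under 0.05 in limma, and limma voom also called 0 lower. The median log2 fold change of the 9 genes was 0.57 in females and 0.31 in males, against 0.00 and -0.16 over all genes tested. For genes averaging 10 or more normalized counts, the median of all genes was 0.00 in both sexes. Female and male fits rest on separate libraries, whereas the comparisons of sexes below reuse the same 12. An exact permutation test of 3 libraries against 3 cannot go below p = 0.10, so the calls are those of limma. In such bulk samples fewer cells of a type and less RNA per cell cannot be told apart.

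**Figure D1:**
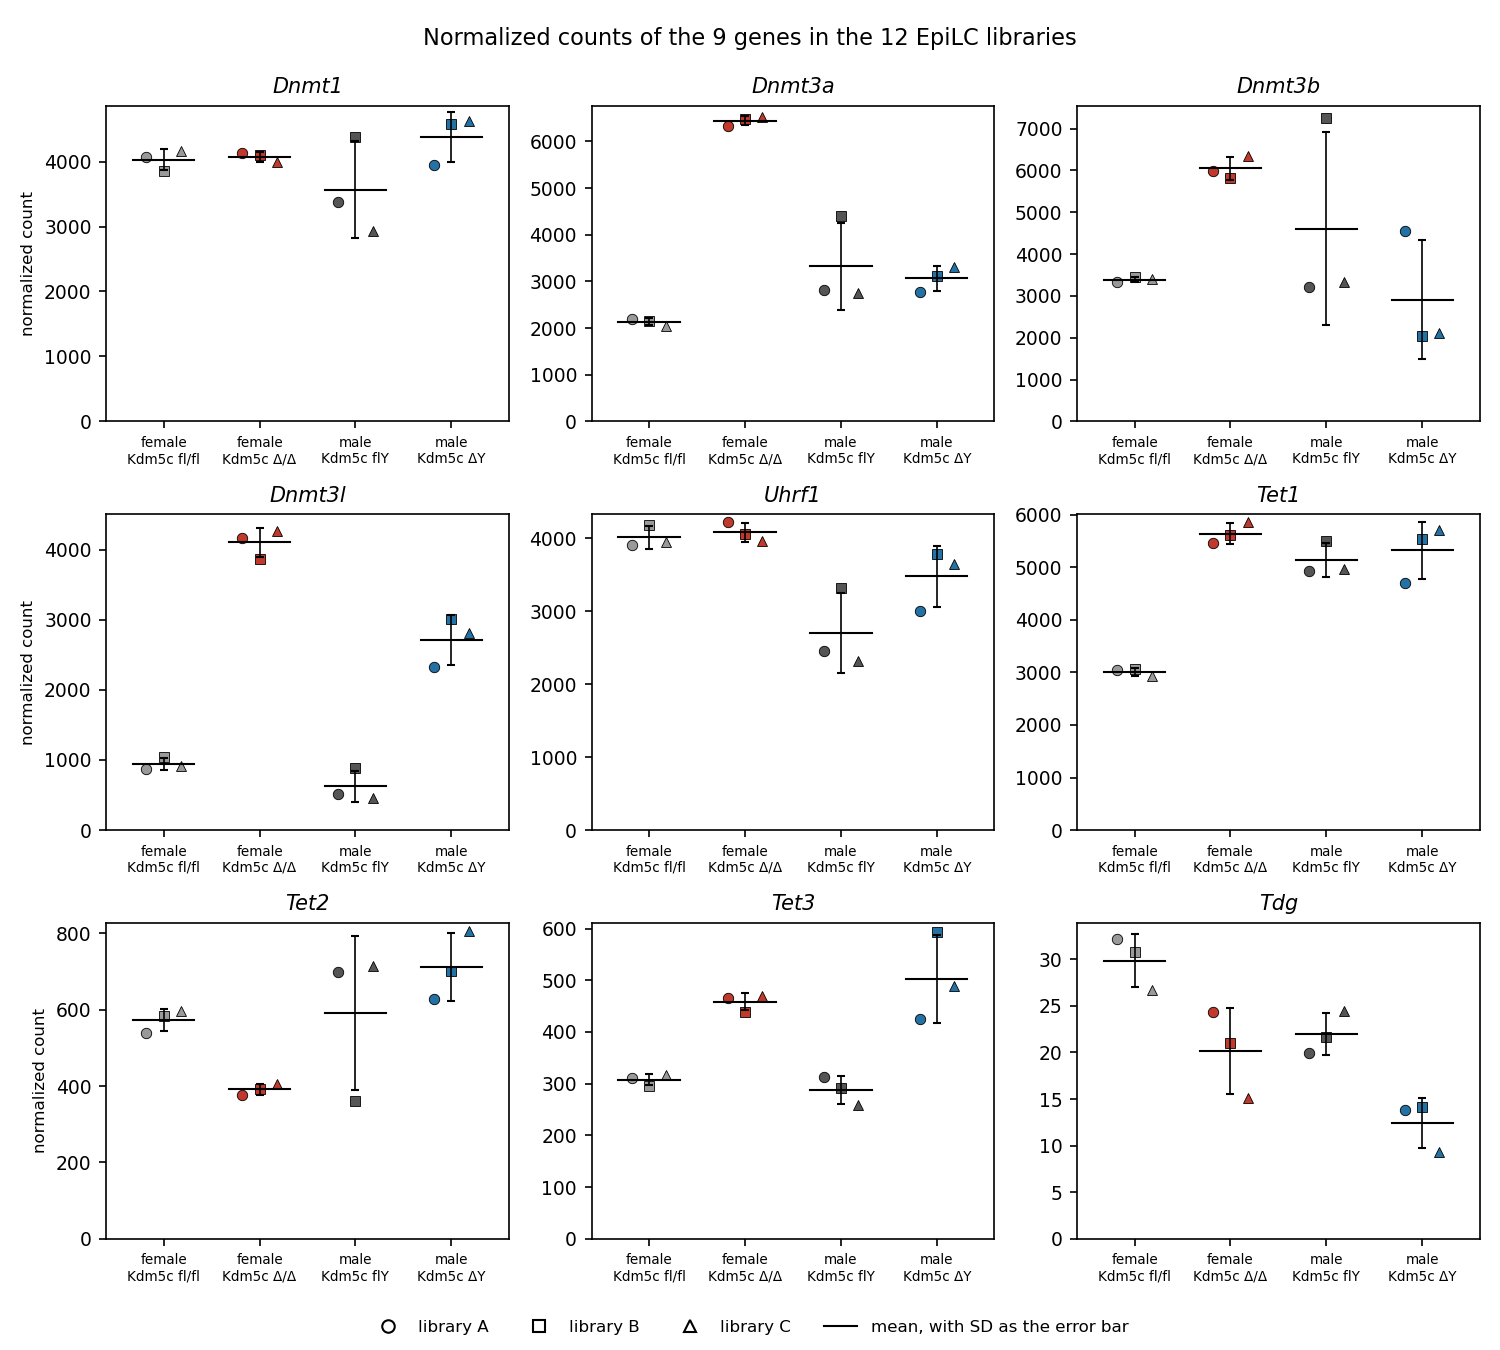
Normalized count (y axis, linear, from 0) of each of the 9 genes in the 12 EpiLC libraries, by sex and genotype (x axis). Points are libraries A (circle), B (square) and C (triangle), lines are group means and error bars are the SD of 3 libraries. *Dnmt3l* stands higher in the knockout libraries of both sexes, *Dnmt3a* only in the female ones, and male control B has the highest *Dnmt3b* value of all, 7264.

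*Dnmt3l* (mm9, chr10:77504692-77526367, plus strand) encodes the cofactor without catalytic activity. Female controls had 869, 1043 and 914 normalized counts, and female knockouts had 4171, 3874 and 4271. Every female knockout library was above every control library, by a factor of 4.36 in the fit (log2 fold change 2.13, SE 0.07, limma adjusted p = 2.44e-14). Male controls had 520.4, 882 and 464, and male knockouts had 2323, 3012 and 2819. The male groups did not overlap either, and the lowest knockout library was knockout A, 1 of the libraries that stand apart. The male log2 fold change was 2.18 (SE 0.22, 95% interval 1.68 to 2.67, limma adjusted p = 0.000853), or 4.52-fold. Leaving out each male library in turn kept the call, with log2 fold changes of 1.99 to 2.46. The difference between the male and the female effect was 0.05 on the log2 scale with a 95% interval of -0.51 to 0.61 (limma adjusted p = 0.907 over all 12 libraries). That interval does not show equal effects. Without male control B and male knockout A together, an alternative chosen after the data had been seen, the male effect was 2.57 and exceeded the female one by 0.44 (limma adjusted p = 0.0108). Its exons share 67 bp with *Aire* on the other strand, and whether the counting used strand is not given in the sources used here.

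*Dnmt3a* (mm9, chr12:3806007-3914443, plus strand), a catalytic methyltransferase, differed between the sexes in its response. Female controls had 2192, 2152 and 2046 normalized counts, and female knockouts had 6334, 6482 and 6522. The female knockouts were thus 3.03-fold higher with no overlap (log2 fold change 1.60, SE 0.05, limma adjusted p = 4.53e-14). Male controls had 2816, 4404 and 2744, and male knockouts had 2779, 3115 and 3306. The male groups overlapped, and control B was the highest of the 6. The male log2 fold change was -0.08 with a 95% interval of -0.49 to 0.32 (limma adjusted p = 0.779). The male effect was 1.68 lower than the female effect on the log2 scale (difference -1.68, 95% interval -2.12 to -1.25, limma adjusted p = 7e-05). Without male control B alone the male log2 fold change turned to 0.14 (limma adjusted p = 0.348). Without both libraries that stand apart it was 0.21 and called (limma adjusted p = 0.0179), and the difference between the sexes was -1.39.

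*Dnmt3b* (mm9, chr2:153475186-153513466, plus strand) encodes the other catalytic enzyme. Female controls had 3342, 3441 and 3392 normalized counts, and female knockouts had 5989, 5809 and 6351. The female libraries did not overlap and the knockouts were 1.78-fold higher (log2 fold change 0.83, SE 0.05, limma adjusted p = 4.16e-10). With the spread estimated over all 12 libraries the adjusted p from limma was 0.0489, just under the threshold. Male controls had 3212, 7264 and 3337, and male knockouts had 4544, 2044 and 2121. Male control B and male knockout A held more than 2 times the level of the other libraries of their groups, so the groups overlapped. The male log2 fold change was -0.66 with a 95% interval of -1.47 to 0.15 (limma adjusted p = 0.282). Without male knockout A it was -1.04 and called (limma adjusted p = 0.0345), and without both of those libraries it was -0.65 and called (limma adjusted p = 0.000179). The male effect was 1.49 lower than the female effect (difference -1.49, 95% interval -2.40 to -0.59, limma adjusted p = 0.0214). That call was lost without female knockout C (limma adjusted p = 0.0505), male knockout B or male knockout C (limma adjusted p = 0.0531 for each). The difference was -1.49 again without both libraries that stand apart (limma adjusted p = 1.31e-07).

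Promoter windows are shown for the genes called in both sexes, *Dnmt3l* and *Tet3*, and for the catalytic partners of DNMT3L, because CpG is the substrate of the enzymes and these windows differ widely in it. Each window runs from 250 bases before to 50 bases after a transcription start in the RefSeq table of GRCm38.p6, 5′ to 3′ on the gene's strand. Coordinates are those of an exact match of the same letters in mm9. Each CG is in capitals, which is the motif searched and reads the same on both strands.
Dnmt3l start 1 (chr10:77504782-77505081, plus): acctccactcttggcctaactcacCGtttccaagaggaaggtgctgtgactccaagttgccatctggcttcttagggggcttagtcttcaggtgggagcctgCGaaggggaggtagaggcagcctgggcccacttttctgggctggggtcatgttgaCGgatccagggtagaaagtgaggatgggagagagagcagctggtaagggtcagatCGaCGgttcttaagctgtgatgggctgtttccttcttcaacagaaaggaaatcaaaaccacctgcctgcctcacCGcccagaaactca
Dnmt3l start 2 (chr10:77512337-77512636, plus): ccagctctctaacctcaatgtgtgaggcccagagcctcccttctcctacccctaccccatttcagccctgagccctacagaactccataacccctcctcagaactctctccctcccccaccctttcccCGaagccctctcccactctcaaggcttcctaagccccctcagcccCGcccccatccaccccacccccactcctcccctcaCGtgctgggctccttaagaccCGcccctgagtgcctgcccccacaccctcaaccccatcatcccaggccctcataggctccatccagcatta
Dnmt3l start 3 (chr10:77517830-77518129, plus): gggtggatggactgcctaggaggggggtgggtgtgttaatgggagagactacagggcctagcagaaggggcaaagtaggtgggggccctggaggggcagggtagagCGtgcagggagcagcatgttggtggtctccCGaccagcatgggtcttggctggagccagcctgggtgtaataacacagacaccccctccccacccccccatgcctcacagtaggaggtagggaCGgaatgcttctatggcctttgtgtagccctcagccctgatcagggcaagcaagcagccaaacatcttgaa
Tet3 (chr6:83391623-83391922, minus): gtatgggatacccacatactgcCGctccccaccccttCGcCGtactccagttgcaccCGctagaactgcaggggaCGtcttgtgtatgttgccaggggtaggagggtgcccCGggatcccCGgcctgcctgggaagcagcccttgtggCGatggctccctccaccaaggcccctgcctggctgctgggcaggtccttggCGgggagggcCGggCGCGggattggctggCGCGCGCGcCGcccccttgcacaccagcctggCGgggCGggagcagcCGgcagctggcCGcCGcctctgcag
Dnmt3a start 1 (chr12:3806730-3807029, plus): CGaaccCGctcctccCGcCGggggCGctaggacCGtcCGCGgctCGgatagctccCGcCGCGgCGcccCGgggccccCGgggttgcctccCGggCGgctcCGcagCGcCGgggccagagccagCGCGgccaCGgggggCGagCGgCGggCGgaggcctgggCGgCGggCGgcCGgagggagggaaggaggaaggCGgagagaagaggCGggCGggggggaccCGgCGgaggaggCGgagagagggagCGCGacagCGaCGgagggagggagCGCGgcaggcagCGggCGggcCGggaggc
Dnmt3b (chr2:153474935-153475234, plus): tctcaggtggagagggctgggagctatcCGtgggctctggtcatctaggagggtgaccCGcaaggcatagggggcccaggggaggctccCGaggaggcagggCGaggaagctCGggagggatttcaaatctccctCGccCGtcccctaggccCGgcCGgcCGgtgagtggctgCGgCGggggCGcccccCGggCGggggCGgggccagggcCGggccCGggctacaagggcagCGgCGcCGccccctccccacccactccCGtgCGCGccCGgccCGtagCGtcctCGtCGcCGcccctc
The 3 *Dnmt3l* windows held 6, 4 and 3 CG, and 43.6%, 31.4% and 23.3% of the 32851 promoter windows in the table held fewer. Of all windows, 94.6% held at least 1 CG, and the median window held 7. The *Tet3* window held 22 CG, with 76.9% of windows holding fewer, and the *Dnmt3b* window held 30 (88.3%). The *Dnmt3a* windows 1, 2 and 3 held 46 (98.4%), 47 (98.6%) and 18 (70.3%), and only the first is shown. Windows were found for all 9 genes, 16 in total, and the *Tet2* window, with 57 CG (99.8%), was the richest of them. These counts describe the letters. Methylation of the windows was not measured in these files, and which start was used was not analysed here.

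*Dnmt1* (mm9, chr9:20711650-20757317, minus strand), the maintenance methyltransferase, did not separate the female genotypes. Female controls had 4066, 3858 and 4167 normalized counts, and female knockouts had 4139, 4098 and 3988. These values overlapped, and the log2 fold change of 0.02 had a 95% interval of -0.09 to 0.13 (limma adjusted p = 0.817). Male controls had 3384, 4386 and 2929, and male knockouts had 3942, 4582 and 4626. The male groups overlapped through control B and knockout A, and the log2 fold change was 0.31 with a 95% interval of -0.04 to 0.67 (limma adjusted p = 0.25). Without male control B it was 0.47 and called (limma adjusted p = 0.0385), and without both of those libraries it was 0.55 (limma adjusted p = 0.0015). The difference between the sexes, 0.30, was not called over all 12 libraries (limma adjusted p = 0.241) but was called without male control B (0.46, limma adjusted p = 0.0124) and without both libraries (0.53, limma adjusted p = 0.000649).

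*Uhrf1* (mm9, chr17:56442744-56462909, plus strand) encodes the protein that brings DNMT1 to replicated DNA. Female controls had 3906, 4189 and 3943 normalized counts, and female knockouts had 4227, 4057 and 3964. The female groups overlapped (log2 fold change 0.03, 95% interval -0.09 to 0.14, limma adjusted p = 0.718). Male controls had 2462, 3323 and 2318, and male knockouts had 3006, 3791 and 3650.2. Control B again reached into the range of the knockouts, and the male log2 fold change of 0.38 was not called (95% interval 0.02 to 0.73, limma adjusted p = 0.181). It was called without male control B (0.54, limma adjusted p = 0.0365), in the fit over all 12 libraries (limma adjusted p = 0.045) and without both libraries that stand apart (0.64, limma adjusted p = 0.000236). The difference between the sexes of 0.35 (limma adjusted p = 0.176) was called without male control B (0.51, limma adjusted p = 0.0105), without male knockout A (0.45, limma adjusted p = 0.0428) and without both (0.61, limma adjusted p = 7.77e-05). Only 76.8% of the exonic 50-base read starts tested in *Uhrf1* occur once in mm9. Reads from the rest were not counted by the authors, who kept uniquely mapped reads, so its level per kb is understated.

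*Tet1* (mm9, chr10:62267318-62361866, minus strand) encodes the TET dioxygenase with the highest level per kb here. Female controls had 3049, 3056 and 2927 normalized counts, and female knockouts had 5454, 5605 and 5855. All female knockout libraries were above all controls, by 1.87-fold (log2 fold change 0.90, SE 0.05, limma adjusted p = 1.15e-10). Male controls had 4931, 5502 and 4959.6, and male knockouts had 4709.5, 5544 and 5716. The male genotypes overlapped and lay near the level of female knockouts (log2 fold change 0.05, 95% interval -0.22 to 0.32, limma adjusted p = 0.805). The male effect was 0.85 lower than the female one (difference -0.85, 95% interval -1.12 to -0.59, limma adjusted p = 0.000318), a call kept without each library in turn. Without both libraries that stand apart the male log2 fold change was 0.19 and called (limma adjusted p = 0.0124).

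*Tet2* (mm9, chr3:133126643-133207354, minus strand) was the 1 gene of the 9 called lower in a knockout. Female controls had 540.2, 584 and 596 normalized counts, and female knockouts had 376, 393 and 404. The female groups did not overlap and the knockouts were lower by 1.46-fold (log2 fold change -0.55, SE 0.07, limma adjusted p = 1.93e-06). With the spread estimated over all 12 libraries the adjusted p from limma was 0.0516. Male controls had 699.9, 359.8 and 714, and male knockouts had 628, 700.4 and 805. Control B was the lowest of the male libraries, and the others overlapped (log2 fold change 0.33, 95% interval -0.22 to 0.87, limma adjusted p = 0.422). The male effect was 0.88 higher than the female effect (95% interval 0.27 to 1.48, limma adjusted p = 0.0401). Leaving out any female library, male knockout B or male knockout C ended that call, with limma adjusted p of 0.0628 to 0.091, and the difference without them was 0.78 to 0.92. Without both libraries that stand apart the male log2 fold change was 0.09 and the difference was 0.64 (limma adjusted p = 0.000537).

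*Tet3* (mm9, chr6:83312367-83391672, minus strand) was higher in the knockouts of both sexes. Female controls had 311, 296 and 317 normalized counts, and female knockouts had 466, 439 and 469.9. There was no overlap, and knockouts were 1.49-fold higher (log2 fold change 0.57, SE 0.07, limma adjusted p = 1.8e-06). Male controls had 312, 293 and 259, and male knockouts had 425, 594 and 488. The male groups did not overlap, with a log2 fold change of 0.79 (SE 0.16, 95% interval 0.45 to 1.14, limma adjusted p = 0.0166), or 1.73-fold. The male call was lost without control A (limma adjusted p = 0.0618), control C (0.104), knockout B (0.077) or knockout C (0.0671), with log2 fold changes of 0.67 to 0.85 in those fits. Without control B and knockout A together it was kept, at 0.92 (limma adjusted p = 0.00212). The effects of the sexes differed by 0.22 with a 95% interval of -0.14 to 0.58 (limma adjusted p = 0.369).

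*Tdg* (mm9, chr10:82092573-82113544, plus strand), the glycosylase, was the least abundant of the 9. Female controls had 32.2, 30.7 and 26.7 normalized counts, and female knockouts had 24.3, 21.0 and 15.2. Male controls had 19.9, 21.7 and 24.4, and male knockouts had 13.8, 14.2 and 9.31. In both sexes each knockout library was below each control library, but neither difference passed the test. The log2 fold changes were -0.56 in females (SE 0.26, 95% interval -1.12 to -0.01, limma adjusted p = 0.0835) and -0.79 in males (SE 0.39, 95% interval -1.67 to 0.09, limma adjusted p = 0.243). With the test restricted to genes with a mean of at least 10 the female difference passed (limma adjusted p = 0.047). Only 50.7% of its exonic read starts are unique in mm9, and 367 bp of its exons lie under *Glt8d2* on the opposite strand, so these few reads are an uncertain measure of the gene.

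**Figure D2:**
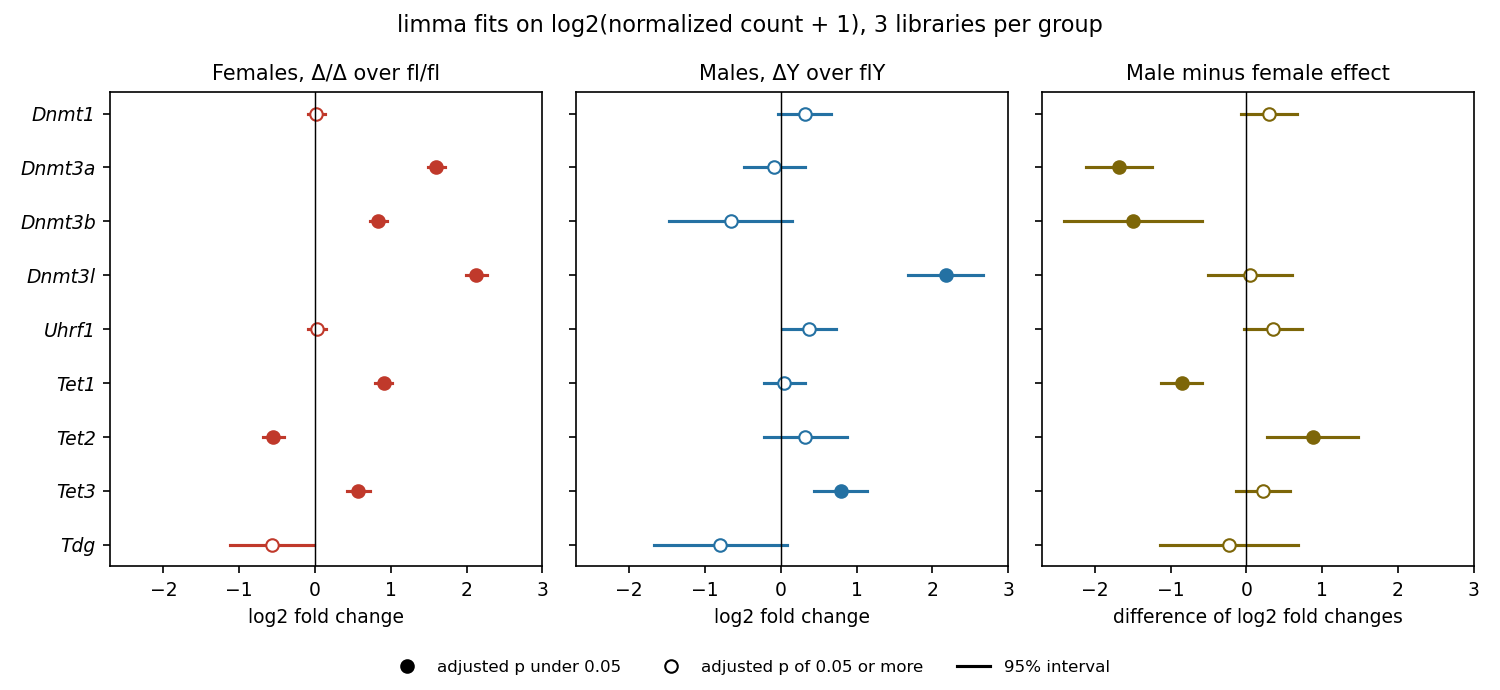
Log2 fold change of knockout over control in females (left) and males (middle), and the male minus the female effect (right), for the 9 genes, from limma fits on log2(normalized count + 1). Points are estimates, filled where the adjusted p was under 0.05, and lines are 95% intervals. *Dnmt3l* and *Tet3* are filled in both sexes, whereas *Dnmt3a*, *Dnmt3b*, *Tet1* and *Tet2* are filled in females and in the difference between the sexes.

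In the test of the difference between the male and the female effect, 1 of the 9 genes was called higher (*Tet2*) and 3 lower (*Dnmt3a*, *Dnmt3b* and *Tet1*). Over all 22014 genes tested, 10.6% were called higher and 10.7% lower. Comparing the controls, female over male, *Dnmt3l* (1.57-fold, log2 fold change 0.65, limma adjusted p = 0.0222) and *Uhrf1* (1.5-fold, 0.59, limma adjusted p = 0.00458) were called higher in females. *Tet1* (log2 fold change -0.77, limma adjusted p = 5.62e-05) and *Dnmt3a* (-0.61, limma adjusted p = 0.00862) were called lower in female controls. These are 2 of 9 higher and 2 of 9 lower, against 9.7% and 11.8% of all genes. The *Dnmt3l* groups overlapped through male control B, and the call was lost without female control B (limma adjusted p = 0.0921), female control C (0.0571), male control A (0.0993) or male control C (0.115). Without male control B, *Dnmt1* was also called, higher in females (0.36, limma adjusted p = 0.0086), and *Tet2* was called lower in females (-0.30, limma adjusted p = 0.0318) where the full set gave 0.02.

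In the knockouts the order differed. Female over male knockouts, *Dnmt3b* (2.24-fold, log2 fold change 1.16, limma adjusted p = 0.0107), *Dnmt3a* (2.11-fold, 1.08, limma adjusted p = 0.000164) and *Dnmt3l* (1.52-fold, 0.60, limma adjusted p = 0.027) were called higher in females. *Tet2* was called lower in female knockouts (log2 fold change -0.85, limma adjusted p = 0.00617). These are 3 of 9 and 1 of 9, against 12.6% of all genes called higher and 12.6% called lower. *Dnmt3a* was thus 1.52-fold lower in female than in male controls and 2.11-fold higher in female than in male knockouts. *Tet1*, 1.7-fold lower in female controls, did not differ by the test between the knockouts (log2 fold change 0.09, 95% interval -0.10 to 0.28, limma adjusted p = 0.584). The *Dnmt3b* call was lost without male knockout B (limma adjusted p = 0.0516) or male knockout C (0.0504). The *Dnmt3l* call was lost without any 1 female knockout library, without male knockout A and without male knockout C, with limma adjusted p of 0.0533 to 0.0862. These contrasts share their libraries with the knockout comparisons and are not separate evidence for them.

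Levels can be compared between genes only per length, here as normalized counts per kb of annotated exon. In female controls the order was *Uhrf1* (942), *Dnmt1* (766), *Dnmt3b* (664), *Dnmt3l* (315), *Tet1* (205), *Dnmt3a* (128), *Tet2* (62.3), *Tet3* (27.8) and *Tdg* (5.56), and no neighbours overlapped in their 3 libraries. In female knockouts *Dnmt3l* came first at 1374 ± 69.1 per kb (SD, n = 3), followed by *Dnmt3b* at 1185 ± 54.1. *Dnmt3a* (387) and *Tet1* (383) overlapped there. In male controls *Dnmt3b*, *Dnmt1* and *Uhrf1* overlapped, at means of 902, 677 and 634, as did *Dnmt3l* (208) and *Dnmt3a* (199.6). In male knockouts *Dnmt3l* was first at 909.6 ± 119, and overlapped *Dnmt1* (833), *Uhrf1* (818) and *Dnmt3b* (569). Since the *Uhrf1* level is understated, its place below *Dnmt3l* in the knockouts of both sexes is uncertain. The same holds for its place below *Dnmt1* in both male groups, and below *Dnmt3b* in female knockouts and male controls. Only 91.5% of the *Dnmt3b* read starts tested are unique in mm9. Its level is thus understated too, and its place below other genes is less certain. *Tet2*, *Tet3* and *Tdg* held the last places in all 4 groups. With the longest annotated transcript as the length, *Dnmt3l* still came first in both knockouts, but other places depended on the length used. In female controls *Dnmt3b* (785.1) then stood above *Dnmt1* (765.6), and *Dnmt3a* (219.9) above *Tet1* (209.5). In female knockouts *Dnmt3a* rose to 665.6 and its mean moved away from that of *Tet1*. *Dnmt1* and *Uhrf1* changed places in both male groups, as did *Dnmt3l* and *Dnmt3a* in male controls.

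The ratio of the cofactor to its catalytic partners within a library does not depend on the size factor. On the scale of counts per kb, *Dnmt3l* over *Dnmt3a* was 2.21, 2.70 and 2.49 in female controls and 3.67, 3.33 and 3.65 in female knockouts. It was 1.03, 1.12 and 0.942 in male controls and 4.66, 5.39 and 4.75 in male knockouts. The genotypes did not overlap in either sex, and the mean ratio was 1.44 times the control value in females and 4.79 times in males. *Dnmt3l* over *Dnmt3b* went from 0.474 ± 0.0387 to 1.16 ± 0.0268 in females and from 0.241 ± 0.0348 to 1.89 ± 0.887 in males (mean ± SD, n = 3). The wide male spread came from knockout A, at 0.873 against 2.52 and 2.27. *Dnmt3a* over *Dnmt3b* went from 0.193 ± 0.00814 to 0.327 ± 0.0139 in females. In males it was 0.236 ± 0.0439 in controls and 0.378 ± 0.165 in knockouts, with overlap. Of the read starts tested, 91.5% were unique in *Dnmt3b*, 99.2% in *Dnmt3a* and 100% in *Dnmt3l*. Ratios over *Dnmt3b* are therefore somewhat overstated in all groups. *Tet1* over *Tet2* was 3.29 ± 0.230 in female controls and 9.02 ± 0.0844 in female knockouts. In males it was 4.41, 9.57 and 4.34 in controls and 4.69, 4.95 and 4.44 in knockouts, so that male control B alone stood at the value of the female knockouts. *Uhrf1* over *Dnmt1* was 1.23 ± 0.0947 and 1.24 ± 0.0210 in female controls and knockouts, and 0.938 ± 0.0396 and 0.980 ± 0.0402 in males. Of the read starts tested, 76.8% were unique in *Uhrf1* and 100% in *Dnmt1*, so this ratio is understated in all groups. These ratios are given as a description with no test.

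**Figure D3:**
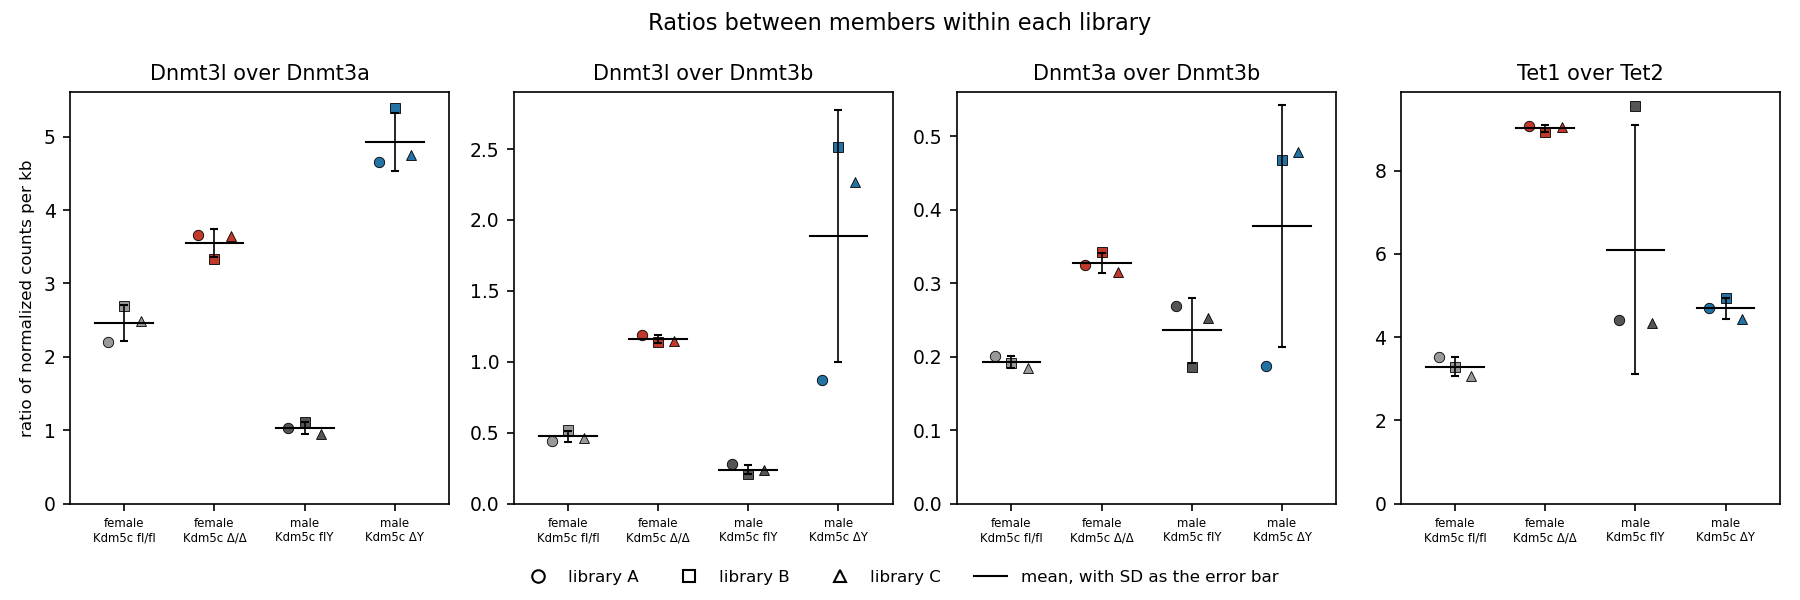
Ratios of normalized counts per kb between pairs of genes within each library (y axis, linear, from 0), by sex and genotype (x axis). Points are libraries A (circle), B (square) and C (triangle), lines are means and error bars are the SD of 3 libraries. *Dnmt3l* over *Dnmt3a* is near 1 in male controls and between 4.66 and 5.39 in male knockouts, and *Tet1* over *Tet2* is near 9 in female knockouts and in male control B.

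Genes around these enzymes were taken from 5 lists written with earlier results of these data known. Among 15 partners of the methyltransferases, 9 were called higher and 2 lower in female knockouts, and 1 higher in male knockouts. For this and the next 4 lists the shares of all genes called were 25.4% higher and 24.6% lower in females and 4.19% and 3.58% in males. Among genes averaging 10 or more normalized counts a larger share was called in both sexes, as given above. *Hells*, a chromatin remodeller needed for methylation of repeats, had 4973 ± 206 normalized counts in female controls and 8920.5 ± 549 in female knockouts (log2 fold change 0.84, limma adjusted p = 1.25e-09). *Trdmt1*, also called *Dnmt2* and a methyltransferase of transfer RNA, went from 59.8 ± 9.12 to 117 ± 6.30, and *Zfp57*, which protects imprinted regions, from 321 ± 11.52 to 565 ± 18.5 (limma adjusted p = 2.32e-05 and 1.3e-08). In males the 1 call was *Dppa3*, whose protein keeps UHRF1 out of the oocyte nucleus, at 67.8 ± 12.98 in controls and 281 ± 68.5 in knockouts (log2 fold change 2.02, limma adjusted p = 0.00129). *Dppa3* was called higher in females too, from 176 ± 23.0 to 295 ± 13.2 (0.75, limma adjusted p = 3.86e-06), and the sexes differed by 1.27 (limma adjusted p = 0.00233). The median log2 fold change of the 15 was 0.30 in females and 0.21 in males, against 0.00 in both sexes for genes averaging 10 or more, the comparison that applies to the medians of the next lists too.

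Of 8 methyl-CpG readers, 2 were called higher and 2 lower in female knockouts and 2 higher in male knockouts, so that the female counts lay at the share of all genes. *Zbtb38* rose in females from 91.9 ± 10.98 to 212 ± 12.3 normalized counts (log2 fold change 1.20, limma adjusted p = 6.96e-08). *Zbtb4* was called in opposite directions, from 96.7 ± 7.50 to 66.1 ± 2.41 in females (limma adjusted p = 0.00309) and from 114 ± 9.80 to 185 ± 6.03 in males (limma adjusted p = 0.0333). Its difference between the sexes was 1.23 (limma adjusted p = 0.000382). *Mbd1* went from 117 ± 4.77 to 207 ± 12.5 in males (limma adjusted p = 0.0141). The male *Zbtb4* and *Mbd1* calls were each lost without male control A, male control C, male knockout B or male knockout C (limma adjusted p up to 0.151 and 0.0841). The list medians were -0.16 in females and 0.40 in males.

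Of 16 genes of active demethylation and base excision repair, 6 were called higher and 5 lower in female knockouts and 3 higher in male knockouts. *Gadd45b*, a stress gene linked to demethylation, was 883 ± 19.3 in female controls and 232 ± 8.53 in female knockouts (log2 fold change -1.93, limma adjusted p = 8.63e-14), and 219 ± 61.2 and 711 ± 328 in males (1.60, limma adjusted p = 0.0309). The effects differed by 3.53 between the sexes (limma adjusted p = 6.91e-05). *Gadd45a* was called higher in both sexes, from 278 ± 24.8 to 579 ± 8.88 in females (log2 fold change 1.06, limma adjusted p = 1.6e-09) and from 282 ± 47.1 to 640.4 ± 54.9 in males (1.19, limma adjusted p = 0.00256). *Hmces*, which shields abasic sites, was also called higher in both, by 2.19-fold in females (limma adjusted p = 5.89e-09) and 1.85-fold in males (limma adjusted p = 0.0182). *Neil3*, a glycosylase, fell in females from 139 ± 12.8 to 45.9 ± 6.97 (log2 fold change -1.59, limma adjusted p = 8.44e-08). In males, the *Gadd45b* call was lost without any library but knockout A, and the *Hmces* call without control A, control C, knockout B or knockout C (limma adjusted p up to 0.117 and 0.0973). The list medians were 0.05 and 0.08.

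Of 9 cofactors and partners of the TET enzymes, 1 was called higher and 5 lower in female knockouts, and 1 higher in male knockouts. *Ogt*, a glycosyltransferase bound by TET proteins, had 3076 ± 8.69 and 2235 ± 31.5 in female controls and knockouts (log2 fold change -0.46, limma adjusted p = 4.53e-07). *Cxxc5*, a CpG-binding relative of TET, had 529 ± 36.2 and 277 ± 12.8 (-0.93, limma adjusted p = 8.61e-09), and its relative *Cxxc4* had 18.2 ± 3.57 and 8.50 ± 2.16 (-1.03, limma adjusted p = 0.0153). *Idh2*, which makes the α-ketoglutarate that TET enzymes consume, was called lower in female knockouts, from 912 ± 47.4 to 708 ± 22.1 (log2 fold change -0.37, limma adjusted p = 6.09e-05), and higher in male ones, from 766 ± 127 to 1521 ± 502 (0.94, limma adjusted p = 0.0454). Its effects differed by 1.304 between the sexes (limma adjusted p = 0.00434). The *Cxxc4* call was lost without female control C or female knockout C (limma adjusted p up to 0.0645) and the male *Idh2* call without any male library but knockout A (up to 0.195). The list medians were -0.37 in females and 0.11 in males.

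Of 14 genes that supply methyl groups, 7 were called higher and 3 lower in female knockouts and 1 higher in male knockouts. *Mat2a*, which makes the methyl donor S-adenosylmethionine, went from 2769.8 ± 51.7 to 6815 ± 105 in females (2.46-fold, limma adjusted p = 5.41e-13), with 2529.9 ± 746 and 2890.1 ± 688 in males. *Ahcyl1*, a relative of the hydrolase that clears S-adenosylhomocysteine, fell from 2019 ± 39.8 to 1068 ± 10.5 in females (-0.92, limma adjusted p = 9.34e-11). *Tdh*, the threonine dehydrogenase of mouse ESCs, was called higher in both sexes, from 57.0 ± 4.08 to 928 ± 54.5 in females (log2 fold change 4.00, limma adjusted p = 2.94e-16) and from 155 ± 147 to 482 ± 147 in males (1.97, limma adjusted p = 0.0498). The male *Tdh* call was lost without control A, control C, knockout B or knockout C (limma adjusted p up to 0.217). The list medians were 0.27 and 0.07.

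The male counts of these lists depend on the libraries that stand apart. Without male control B and male knockout A together, 9377 genes were called in males in place of 1703, with 17.7% of the genes tested called higher and 25.3% lower. Of the lists, 8 partners were then called higher and 1 lower (*Qser1*), 5 readers higher and 1 lower (*Mbd4*), and 6 repair genes higher and 1 lower (*Neil3*). In the same fit 5 cofactors were called higher and 1 lower (*Cxxc4*), and 6 donor genes higher. *Qser1* and *Mbd4* were named after their values had been seen.

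Over the 12 libraries the spread of log2(normalized count + 1) was largest for *Dnmt3l* (SD 1.19), followed by *Dnmt3a* (0.63) and *Dnmt3b* (0.60), and smallest for *Dnmt1* (0.18). The genes whose profile lay closest to each of these 3, out of 9701 genes averaging 100 or more, were found by the root mean square difference of log2 values centred on each gene's mean. *Dmrt1* was closest to *Dnmt3l* (0.23), with group means of 155 and 972 in female controls and knockouts and 123 and 509 in males, followed by *Manba* (0.25) and *Galnt6* (0.31). For *Dnmt3a* they were *Dnajb11* (0.18), *Tmppe* (0.18) and *Fam134b* (0.20), and for *Dnmt3b* they were *Trim2* (0.14), *Pdzd4* (0.15) and *Magohb* (0.18). The median difference over all genes was 1.15 from *Dnmt3l*, 0.63 from *Dnmt3a* and 0.62 from *Dnmt3b*. The 12 libraries include the same group differences, so likeness partly restates them.

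Markers of the cell state differed between the same groups. The 6 formative and core markers listed (*Fgf5*, *Pou3f1*, *Otx2*, *Pou5f1*, *Sox2*, *Utf1*) had reads in every library, which does not test the label, since several are also high in naive ESCs. Their summed normalized counts were 8448 to 8555 in female controls, 10221 to 10449 in female knockouts, 10593 to 14043 in male controls and 7699.7 to 8442 in male knockouts. Of the 6, 3 were called higher and 2 lower in female knockouts and 4 lower in male knockouts. The female sum was higher mostly through *Sox2* (331 to 363 in controls, 1670 to 1962 in knockouts) and *Utf1* (2466 to 2634 and 3294 to 3646), while *Pou5f1* was lower in knockouts (3513 to 3686 in controls, 3107 to 3163 in knockouts). The sum of 8 naive ESC markers was 3729 to 3866 in female controls and 4481 to 4667 in female knockouts, and 4008 to 4980 in male controls and 7323 to 9462 in male knockouts. Of these 8, 7 were called higher and 1 lower in female knockouts, and 5 higher in male knockouts. The gene called lower was *Nanog*, the largest part of the female control sum. Its normalized counts were 2742 to 2892 in female controls and 1465 to 1547 in female knockouts. In males they were 2432 to 2599 in controls and 2152 to 3254 in knockouts. Male control B had the highest formative sum, 14043, and the highest *Dnmt3b* value, and also the highest naive sum of its group, 4980. Male knockout A had the lowest naive sum of its group, 7323, and the highest *Dnmt3b* value of its group.

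Markers of other cell types also differed by genotype. The sum of 6 fibroblast markers, the cells of a feeder layer, was 2252 to 2301 in female controls against 746 to 812 in female knockouts, and 559 to 823 in male controls against 4166 to 4663 in male knockouts. Of the 6, 3 were called lower in female knockouts and 4 higher in male knockouts. These sums were mostly *Col1a1* and *Col1a2*. In males, *Col3a1* was at 157 to 360 in knockouts against 50.8 to 109 in controls. *Postn* was at 82.8 to 117 in male knockouts against 4.14 to 18.7 in male controls. *Thy1* was at 93.3, 39.5 and 41.4 in male knockouts A, B and C (50.3 to 96.1 in male controls). *Dcn* was at 4.87, 0 and 0 in the same libraries (3.99 to 7.19 in male controls), which is only a few reads. The sum of 5 endoderm markers was 171 to 219 against 2277 to 2432 in females, and 1137 to 1347 against 196 to 909 in males. The neural sum (3 genes) was 212 to 239 in female controls and 28.3 to 41.5 in female knockouts, and 84.8 to 109 and 29.4 to 296 in males. The mesendoderm sum (4 genes) was 268 to 299, 221 to 243, 191 to 211 and 123 to 270 in the same 4 groups. No marker was at 0 in all libraries. The naive sum was higher in knockouts of both sexes, although *Nanog* within it was lower in female knockouts. The fibroblast, endoderm and formative sums differed in opposite directions in females and males. The neural sum was lower in female knockouts and in male knockouts B and C, and higher in male knockout A. The mesendoderm sum was lower in female knockouts and overlapped between genotypes in males. The part of these cell types in the results was not tested.

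**Figure D4:**
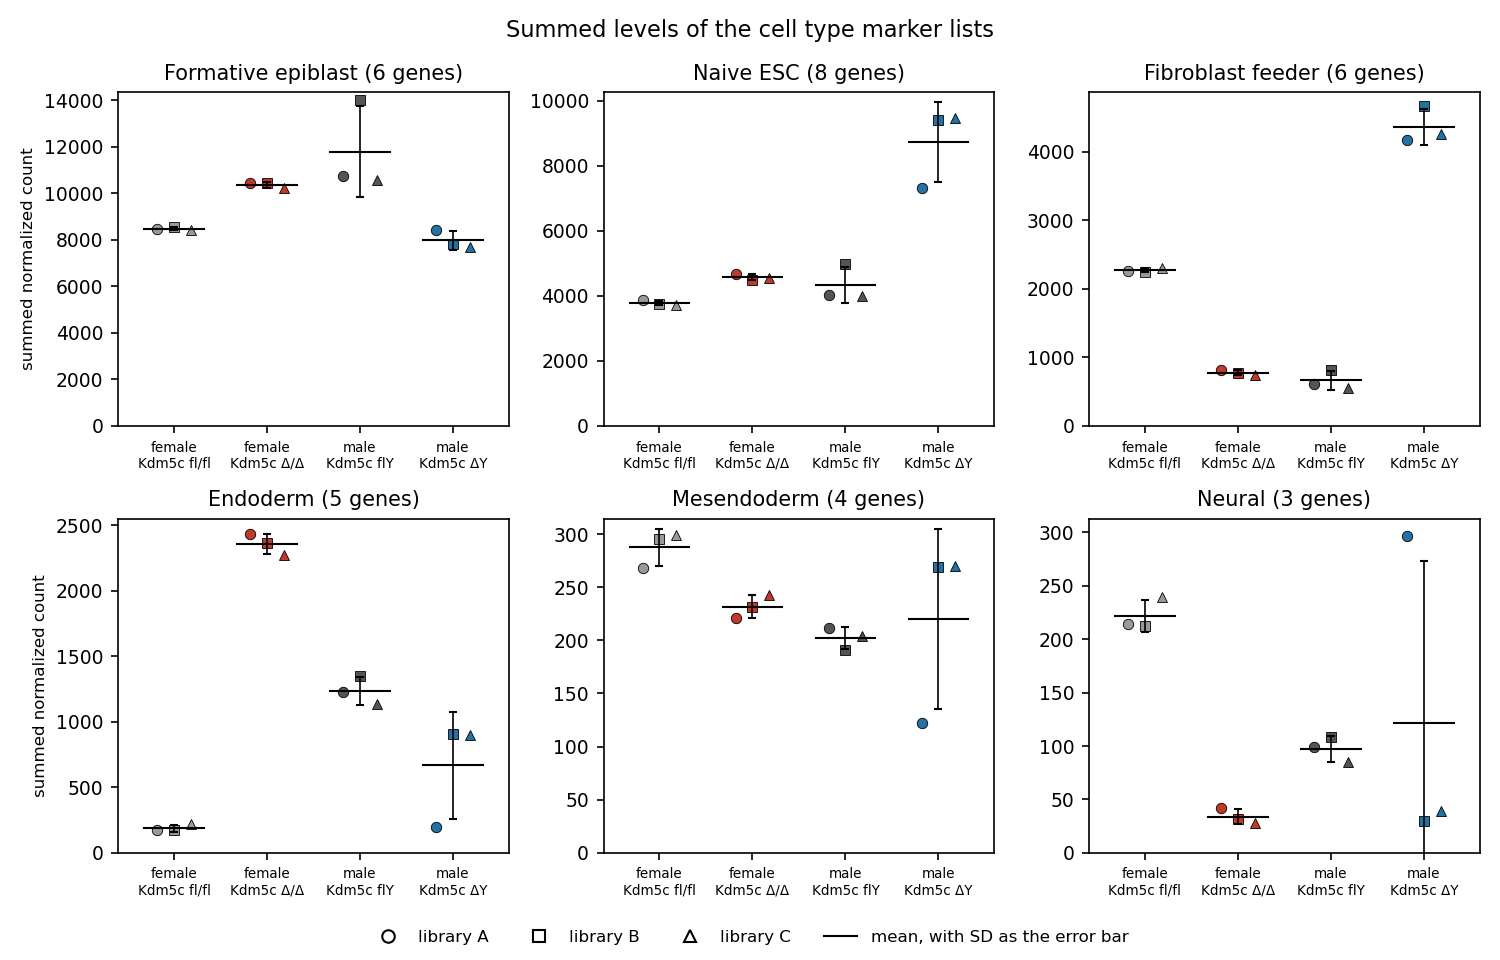
Summed normalized counts of 6 lists of cell type markers (y axis, linear, from 0) in the 12 libraries, by sex and genotype (x axis). Points are libraries A (circle), B (square) and C (triangle), lines are means and error bars are the SD of 3 libraries. The naive sum is higher in the knockouts of both sexes, while the fibroblast sum is lower in female and higher in male knockouts.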

How the data were processed

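Per the labels and the study's methods, ribosomal RNA was depleted and libraries were read as single ends of 50 bp. The authors aligned reads to mm9 with TopHat 2.1.0, kept unique hits with at most 1 mismatch, and deposited, per sex, the signal of each gene as a group mean of normalized counts. The submitters' processing notes also name Bowtie2 2.2.6.0, DESeq and Cuffdiff, and the gene annotation is not given in the sources used here. The deposited tables also hold the authors' fold changes, log2 fold changes, p-values and adjusted p-values, which were not used.

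A group mean averages the libraries' whole read counts after division by size factors. These read counts were solved for means up to 10000, which covered 22808 genes in all 12 libraries and 86.0% to 91.4% of the normalized reads of a group. Size factors were 0.988 to 0.999 times those computed over all 12 libraries together, so the tables of both sexes share a scale. limma 3.58.1 (R 4.3.3) with an intensity trend was fitted to log2(normalized count + 1) within each sex, and over all 12 libraries for the other comparisons. On simulated data it found 100% (female, 19583 genes) and 94.5% (male, 21900 genes) of 200 genes changed 2-fold, with 3.85% and 3.57% of calls false. The simulated counts had the same spread for every gene and no library that stood apart. These rates therefore cannot be carried over to the real data, least of all to the male fit. Exon lengths and read uniqueness came from GENCODE vM1 on mm9, promoter windows from RefSeq.

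All 9 genes and, per list, up to 3 called genes of a mean of at least 10 with the largest change in a sex were named, besides the 3 nearest profiles of the 3 most variable genes. The values of 1 gene that this rule selects are not reported here. The genes and lists were chosen with earlier results of these data known. Alternatives were a pseudocount of 0.1, limma voom, dropping genes under a mean of 10, other scalings, a fit over all libraries and fits without each library. Reads were solved in Python 3.11.15 with numba 0.67.0 and numpy 2.4.6. Tables were made with pandas 2.3.3, tests computed with scipy 1.17.1 and plots drawn with matplotlib 3.10.9.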

Additional observations from a re-analysis of the deposited data

Results flagged for a closer look

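For 4 of the 9 genes the effect of the knockout differed between males and females when the difference itself was tested with limma over all 12 libraries. On the log2 scale the male minus the female effect was -1.68 for *Dnmt3a*, -1.49 for *Dnmt3b*, -0.85 for *Tet1* and 0.88 for *Tet2* (limma adjusted p = 7e-05, 0.0214, 0.000318 and 0.0401). For *Dnmt3a* and *Tet1* all 3 female knockout libraries were above all 3 female controls, while male genotypes overlapped. The *Dnmt3b* and *Tet2* calls depend on single libraries, as given above. Without male control B and male knockout A together the 4 differences were -1.39, -1.49, -0.72 and 0.64.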

How the results depend on the processing

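Of 711 values of the 9 genes under alternatives, 646 kept their direction and their side of the threshold, 28 were no longer called, 18 became called and 19 changed direction. Leaving out each library in turn gave 331 to 4684 genes called in males (1 to 4 of the 9 genes) and 9377 (7) without male control B and male knockout A together, an alternative chosen after seeing the data. The same settings gave 3554 to 7334 (2 to 6) and 10014 (7) for the difference between the sexes, 2894 to 8318 (3 to 6) and 10724 (6) for the controls, and 3975 to 7327 (2 to 4) and 8790 (5) for the knockouts. In females the count was 8810 to 9139 (6). With the spread shared by all 12 libraries, 6493 genes were called in females in place of 9799 and 4766 in males in place of 1703. These fits differ from the main ones in the number of libraries, and no other cause was tested.

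Of the changes of direction, *Dnmt3a* in males (0.21 without both libraries) and *Tet2* between controls (-0.30 without male control B) became calls. Leaving out libraries gave log2 values of -0.015 to 0.041 for *Dnmt1* and -8.98e-05 to 0.056 for *Uhrf1* in females, and -0.20 to 0.21 for *Dnmt3a* and -0.0041 to 0.19 for *Tet1* in males. The difference between the sexes was -0.13 to 0.44 for *Dnmt3l*. Female over male controls gave -0.54 to 0.051 for *Dnmt3b* and -0.30 to 0.19 for *Tet2*, and female over male knockouts -0.23 to 0.0084 for *Tet3*. With total reads as the scale, *Dnmt1* and *Uhrf1* in females were -0.053 and -0.044, *Tet2* between controls -0.040 and *Tet1* between knockouts -0.030. That scale shifted the median of genes with a mean of at least 10 between knockouts by -0.11, and 36.2% of calls were higher there in place of 50.1%.

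The longest transcript in place of all exons moved 17 of 36 levels per kb by more than 1 SD. No paired analysis was possible because the deposited means carry no replicate numbers of the labels. Depth limits *Tdg*, at 9.31 to 32.2 normalized counts.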
